A study of Mus musculus with 29 samples.

Results

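Cx3cr1 and 6 other genes for chemoattractant receptors of myeloid cells (Ccr1, Ccr2, Ccrl2, Cxcr4, C5ar1 and C5ar2) were followed through 25 lists of chromatin regions from mouse microglia and peritoneal macrophages. The genes were chosen by name, as 7 of the 21938 protein-coding genes of GENCODE vM21. A region belonged to a gene when it overlapped the gene body, extended by 20 kb on each side (the gene's window), by at least 1 bp. Each distinct region was counted once per list.

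The regions come from CUT&RUN, in which a nuclease is brought by an antibody to its chromatin target and the fragments it releases are sequenced. For IRF8 the antibody was directed to GFP and the cells came from female IRF8-EGFP mice: microglia from days 9 (P9) and 14 (P14) after birth and from adults, and peritoneal macrophages. There were 4 libraries at P9 and 3 in each of the other groups. PU.1, H3K27ac and H3K4me1 were mapped in microglia sorted from adult female wild-type (WT) and IRF8 knockout (KO, labelled IRF8KO) brains, with 2 libraries for each target and genotype. The labels give an age of 3 months for all samples, P9 and P14 included, and it was applied to the adults only. The labels describe neither the allele of the IRF8KO strain, nor any Cre, nor how many animals went into a library. The files hold no expression values and no IRF8 map of the KO, so the loss of IRF8 could not be checked here. The source label of the macrophage libraries names microglia, and the titles were followed. Per the labels, the 4 P9 libraries are a subset of 7 and the 2 H3K27ac libraries of the KO a subset of 3. In bulk chromatin, fewer cells with a mark and less of the mark per cell cannot be told apart.

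Chemoattractant receptors are membrane proteins, mostly coupled to G proteins, that steer myeloid cells along gradients of chemokines, complement fragments or lipids. CX3CR1 binds fractalkine (CX3CL1), which neurons display, and is a hallmark receptor of microglia. CCR1 and CCR2 bind inflammatory CC chemokines, and CCR2 draws monocytes out of the bone marrow. CCRL2 is an atypical receptor that binds chemerin without classical signalling, CXCR4 is the receptor for CXCL12, and C5AR1 and C5AR2 bind the complement fragment C5a. IRF8 is a transcription factor of myeloid cells that often binds DNA together with PU.1, an ETS family factor. H3K4me1 marks enhancers in general, and H3K27ac marks active enhancers and promoters.

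The sequences under 5 of the bound regions are shown because the results turn on these places. Each is 200 bp of the GRCm38.p6 reference (RefSeq) around the strongest summit, plus strand, 5′ to 3′. The first 3 lie under WT PU.1 regions at Cx3cr1: chr9:120034262-120034461, whose PU.1 region was lost in the KO, and chr9:120037335-120037534 and chr9:120058836-120059035, whose PU.1 regions were kept. The fourth, chr9:123984750-123984949, lies under the PU.1 region upstream of Ccr1, where IRF8 was found in most libraries. The fifth, chr9:111046148-111046347, lies under an adult IRF8 region downstream of Ccrl2. Capitals mark a match to a searched motif on either strand: GGAAGT, the core that ETS factors recognise, or GAAA and GAAA separated by 2 bases, an interferon-response-like site.
Cx3cr1 34-kb site: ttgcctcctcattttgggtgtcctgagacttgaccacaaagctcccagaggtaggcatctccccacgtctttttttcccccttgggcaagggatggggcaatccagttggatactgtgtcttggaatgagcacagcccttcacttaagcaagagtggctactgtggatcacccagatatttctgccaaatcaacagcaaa
Cx3cr1 30.5-kb site: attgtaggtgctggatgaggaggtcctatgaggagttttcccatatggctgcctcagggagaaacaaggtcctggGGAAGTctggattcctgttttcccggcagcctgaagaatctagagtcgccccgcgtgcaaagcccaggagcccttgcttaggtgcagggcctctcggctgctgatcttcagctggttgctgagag
Cx3cr1 9.32-kb site: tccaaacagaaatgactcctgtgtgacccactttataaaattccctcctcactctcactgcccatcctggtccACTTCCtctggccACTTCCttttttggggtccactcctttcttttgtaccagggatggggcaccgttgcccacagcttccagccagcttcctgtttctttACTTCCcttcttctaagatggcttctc
Ccr1 upstream site: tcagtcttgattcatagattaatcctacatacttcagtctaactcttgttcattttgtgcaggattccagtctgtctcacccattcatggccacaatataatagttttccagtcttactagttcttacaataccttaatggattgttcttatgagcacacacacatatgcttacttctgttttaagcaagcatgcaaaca
Ccrl2 10.5-kb site: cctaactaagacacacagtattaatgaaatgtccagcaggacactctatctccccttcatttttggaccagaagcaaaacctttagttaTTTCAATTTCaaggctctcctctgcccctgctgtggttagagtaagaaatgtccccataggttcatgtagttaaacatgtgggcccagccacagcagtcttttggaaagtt

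In these windows the 34-kb site held no match and the 30.5-kb site held 1 GGAAGT. The 9.32-kb site held 3, all on the minus strand. Over the genes' 8 WT PU.1 regions, 4 windows held GGAAGT, against 25.4% of the 5358 windows under all WT PU.1 consensus regions. None of the 8 held GGAA and GAAA separated by 2 bases, the composite ETS-IRF site, or the interferon-response-like site, which 4.07% and 3.23% of all PU.1 windows held. Under the genes' 28 adult IRF8 regions, 9 windows held GGAAGT (17.5% of the 16934 windows of all adult IRF8 regions), 1 held the composite site (2.83%) and 1 the interferon-response-like site (2.92%). Both of the last lay in the Ccrl2 window. The composite site was at the start of the neighbour Ltf, 21.5 kb from the Ccrl2 start, and the interferon-response-like site is the one printed above. In each of the sets of all regions 1 region, on no chromosome of the reference or running past its end, was not searched. Motifs were searched on both strands, and matches of different motifs can overlap. A match is a description of the sequence, and no match says only that these letters are not in the window.

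In its GENCODE window Cx3cr1 had a region in all 25 lists. Its GENCODE record spans chr9:119901616-120069879 on the minus strand, through a long transcript that crosses Csrnp1, Xirp1 and Ttc21a. The GENCODE window also holds Gorasp1 and Wdr48. The RefSeq gene is shorter, chr9:120048683-120068296, and distances below are from its start. IRF8 regions in the Cx3cr1 window numbered 1, 2, 1 and 1 in the P9 libraries, 7, 9 and 2 at P14, 11, 14 and 6 in adults, and 5, 3 and 2 in peritoneal macrophages. All P9 values were at or below the lowest P14 value, whereas the P14 and adult values overlapped. The third adult library and the third P14 library were the lowest of their groups. In the window of the RefSeq gene, an alternative chosen after seeing the data, 24 of 25 lists had a region, the second macrophage library being the exception. There the counts were 1, 2, 1 and 1 at P9, 6, 8 and 2 at P14, 10, 11 and 4 in adults, and 1, 0 and 1 in macrophages. Outside that RefSeq window, 131 kb from the Cx3cr1 start, lies the start of Gorasp1 and Ttc21a (chr9:119936737-119938268). It had IRF8 in 3 of 3 adult and 3 of 3 macrophage libraries, and is counted for Cx3cr1 in the GENCODE window.

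At Cx3cr1, 1 site had IRF8 in at least 2 libraries of every age and of the macrophages. This 9.32-kb site (chr9:120058285-120059647, intronic) had an IRF8 region in all 4 P9 libraries, in 2 of 3 from P14, in 2 of 3 from adults and in 2 of 3 from macrophages. The authors' fold enrichment over the control there was 5.88, 3.93, 5.35 and 5.25 in the P9 libraries, and 6.32 and 5.76 in the first and second P14 libraries. It was 5.92 and 5.89 in the first and second adult libraries, and 7.22 and 3.36 in the first and the third macrophage libraries. The site had a PU.1 region in both WT libraries (fold enrichment 11.2 and 5.76) and in both KO libraries (6.16 and 10.6). It lay in H3K4me1 regions in all 4 lists of that mark, and no H3K27ac list had a region there.

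The 3 other sites with PU.1 in both WT libraries had IRF8 in at most 1 P9 library and in no macrophage library. The 34-kb site (chr9:120033648-120034929) had an IRF8 region in 1 of 4 libraries at P9, 3 of 3 at P14 and 3 of 3 in adults, with fold enrichments of 15.4, 12.4 and 4.50 in the adults. The 30.5-kb site (chr9:120037115-120038411) had one in 0 of 4, 3 of 3 and 3 of 3. The start site (chr9:120067387-120071343) had one in 0 of 4, 2 of 3 and 2 of 3, and was missing from the third P14 and the third adult libraries. Both distal sites lie beyond the 3′ end of the RefSeq gene, within an intron of the long GENCODE transcript.

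**Figure D1:**
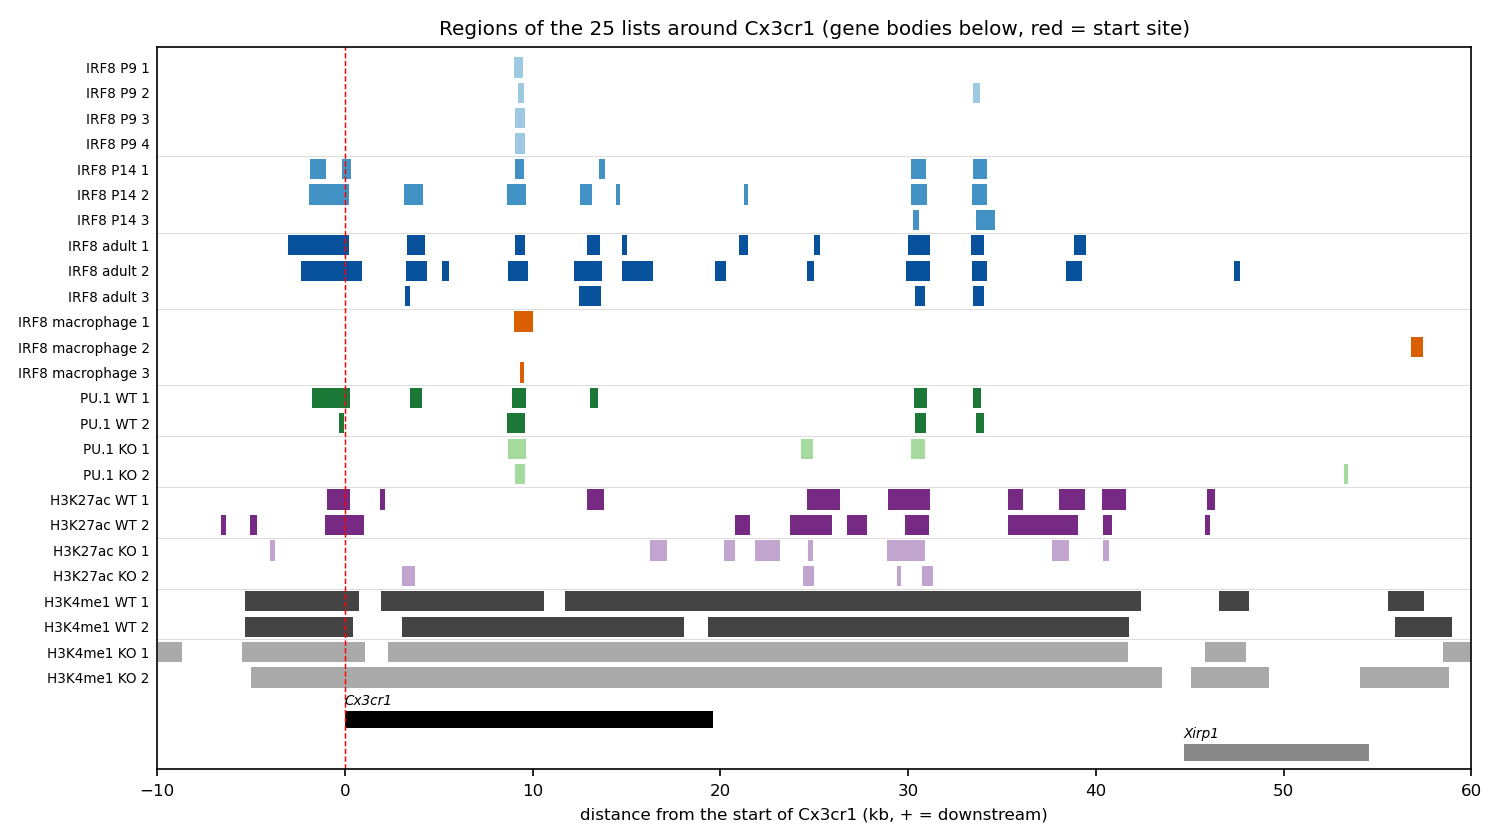
Regions of each of the 25 lists (one row per library, bars are regions) against distance from the RefSeq start of Cx3cr1 in kb, positive downstream; only 10 kb before to 60 kb after the start is drawn, and gene bodies are at the bottom. The 9.32-kb site carries IRF8 in all 4 P9 rows and PU.1 in all 4 PU.1 rows, while the PU.1 bars at 34 kb and at the start are in the WT rows only.

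In IRF8KO microglia PU.1 was not listed at 2 of its WT regions, both at Cx3cr1. A consensus region had a peak in both libraries of a genotype; it was called lost when no peak of either KO library overlapped it, and gained in the mirror case. Of 8 WT PU.1 consensus regions at the 7 genes, 2 were lost, both among the 4 at Cx3cr1. Over all PU.1 regions in windows of protein-coding genes, 24.0% were lost, so the 7 genes' share is near that of all genes. Ccr2, Ccrl2 and Cxcr4 had no WT consensus region to lose. Where 1 of the 2 libraries of a genotype was left out, every region of the remaining library counted as a consensus region. Without a KO library, a lost region was one absent from the 1 remaining KO list, so that count could only stay or rise. The same holds for gained regions without a WT library. Under other settings regions outside the Cx3cr1 window were counted as lost too: 1 of the 3 lost regions when a KO peak had to cover at least 0.5 of a region, 2 of the 4 without the first WT library, 4 of the 9 without the second, and 1 of the 4 without the first KO library. The first PU.1 libraries of both genotypes share 1 control and a q threshold of 0.01, and the second share another control and a threshold of 0.05, per the file headers. Between the first libraries alone 5 of 7 PU.1 regions at Cx3cr1 were lost, and 63.8% over all gene windows. Between the second libraries 3 of 4 were lost, and 54.8% over all gene windows. With 2 libraries against 2 no test was made.

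The lost region at the 34-kb site (chr9:120034262-120034838) had a PU.1 fold enrichment of 4.52 and 4.83 in the WT libraries. Its −log10 p was 6.20 and 7.81. The lost region at the start site (chr9:120068002-120070056) had fold enrichments of 6.05 and 3.45 and a −log10 p of 9.16 and 4.52. In the second WT library this region lay at the 14.8th percentile of its list. Without regions below a −log10 p of 5, Cx3cr1 had 1 lost region of 3, and with lists cut to equal length also 1 of 3. The kept regions had higher values in both WT libraries: −log10 p was 40.3 and 16.7 at the 9.32-kb site, and 21.7 and 12.6 at the 30.5-kb site. The second KO library had no PU.1 peak at the 30.5-kb site, and the first had one with a fold enrichment of 7.03.

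H3K27ac at the Cx3cr1 start (chr9:120067250-120069343) was lost as well. Its fold enrichment was 6.17 and 7.85 in the WT libraries, and neither KO list had a region there, although the first KO list is the longest of the 4 with 88400 regions and the second, with 31524, the shortest. Across the window 4 of 12 WT H3K27ac regions were lost, against 32.3% of all H3K27ac regions in gene windows. The other 3 lie far from the Cx3cr1 start, at 46.1 kb (in Xirp1, chr9:120021922-120022459) and at 119 and 125 kb (in Ttc21a, chr9:119948822-119949740 and chr9:119943075-119943972). With the RefSeq gene body 1 of 4 was lost, the one at the start. Lost counts were 11 of 12 when a KO peak had to cover at least 0.5 of a region, and 10 of 12 when a region had to be absent only from the KO consensus. They were 2 of 6 with lists of equal length. Without the first WT library 8 of 17 were lost, and without the second also 8 of 17, with all regions of the remaining WT list counted. Without the first KO library 8 of 12 were lost, with only the second, shortest list left to hold a peak.

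Acetylation at the 30.5-kb site was listed in all 4 H3K27ac libraries, and the 34-kb site had none in either genotype. One region was gained in the KO, in Wdr48 (chr9:119924617-119925571), 143 kb from the Cx3cr1 start, with fold enrichments of 4.36 and 5.56. This count of 1 of 3, beside 10.0% over all gene windows, was 6 of 14 without the second KO library, 2 of 7 without the first, and 0 with lists of equal length or the RefSeq gene body. No H3K4me1 region at Cx3cr1 was lost (0 of 7), and 1 of 11 was gained (chr9:119961077-119963481). Over all gene windows 9.08% of H3K4me1 regions were lost and 22.2% gained. The gained count at Cx3cr1 was 6 of 11 when a WT peak had to cover at least 0.5 of a region or when a region had to be absent only from the WT consensus. It was 2 of 3 at a −log10 p of at least 5, 2 of 11 with lists of equal length, and 0 of 1 with the RefSeq gene body. Without the first or the second WT library it was 3 and 4 of 11, and without the first or the second KO library 8 of 20 and 4 of 17.

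Ccr1 (chr9:123962124-123968692, minus strand) had a region in 24 of 25 lists and, with Cx3cr1, an IRF8 consensus at P9. IRF8 regions numbered 2, 2, 3 and 0 at P9, 4, 6 and 3 at P14, 5, 5 and 4 in adults, and 7, 7 and 1 in macrophages. All P9 values were at or below the lowest P14 value and below all adult values, whereas the P14 and adult values overlapped. The fourth P9 library was the only one of 13 without a region. Its leading site lies 16.4 kb upstream (chr9:123983415-123986852, intergenic), with IRF8 in 3 of 4 libraries at P9 and in all 3 of each other group. IRF8 fold enrichment there was 9.55, 6.95 and 9.02 in the P9 libraries that had it and 10.8, 13.7 and 10.6 in adults. PU.1 was listed there in both genotypes, at 9.15 and 10.7 in WT and 9.04 and 8.70 in KO. A second site 15.4 kb downstream (chr9:123952454-123954227) had IRF8 in 9 of 10 microglia libraries and in no macrophage library.

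At Ccr1, 2 of the 5 sites with IRF8 in at least 2 macrophage libraries had it in 0 of 10 microglia libraries, as did 25.3% of such sites over all gene windows. These were the start site and gene body (chr9:123964923-123969223), with fold enrichments of 6.35 and 5.50, and a site 10.5 kb downstream (chr9:123956940-123959467), with 4.86 and 6.73. In both cases the third macrophage library, which had 9788 regions against 23163 and 16994 in the others, lacked the region.

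Neither of the 2 WT PU.1 consensus regions at Ccr1 was lost. One intronic H3K27ac region (chr9:123966094-123967410; fold enrichment 3.97 and 6.27 in WT) of 6 was lost. Beside it, over the Ccr1 start, a region was gained (chr9:123968419-123969863; 4.73 and 5.25 in KO). Over all gene windows 10.0% of KO H3K27ac consensus regions were gained. The IRF8 start-site region of the macrophages overlaps both.

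Ccr2 (chr9:124101950-124113557, plus strand) had no IRF8 region at P9. Counts were 2, 4 and 1 at P14, 3, 6 and 2 in adults, and 7, 4 and 2 in macrophages, and these 3 groups overlapped. Upstream of Ccr2, a site 11.3 kb from its nearest start (chr9:124090139-124091176, intergenic) had IRF8 in 1 of 3 libraries at P14, 2 of 3 in adults and 2 of 3 in macrophages. Within the GENCODE record of Ccr2, but beyond the 3′ end of the RefSeq gene (chr9:124101918-124109140), a UTR exon (chr9:124112046-124113122) had IRF8 in 3 of 3 macrophage libraries, at fold enrichments of 5.78, 5.20 and 5.51, and in 0 of 10 microglia libraries. Ccr2 had no PU.1 consensus region in either genotype. None of its 3 WT H3K27ac regions was lost.

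**Figure D2:**
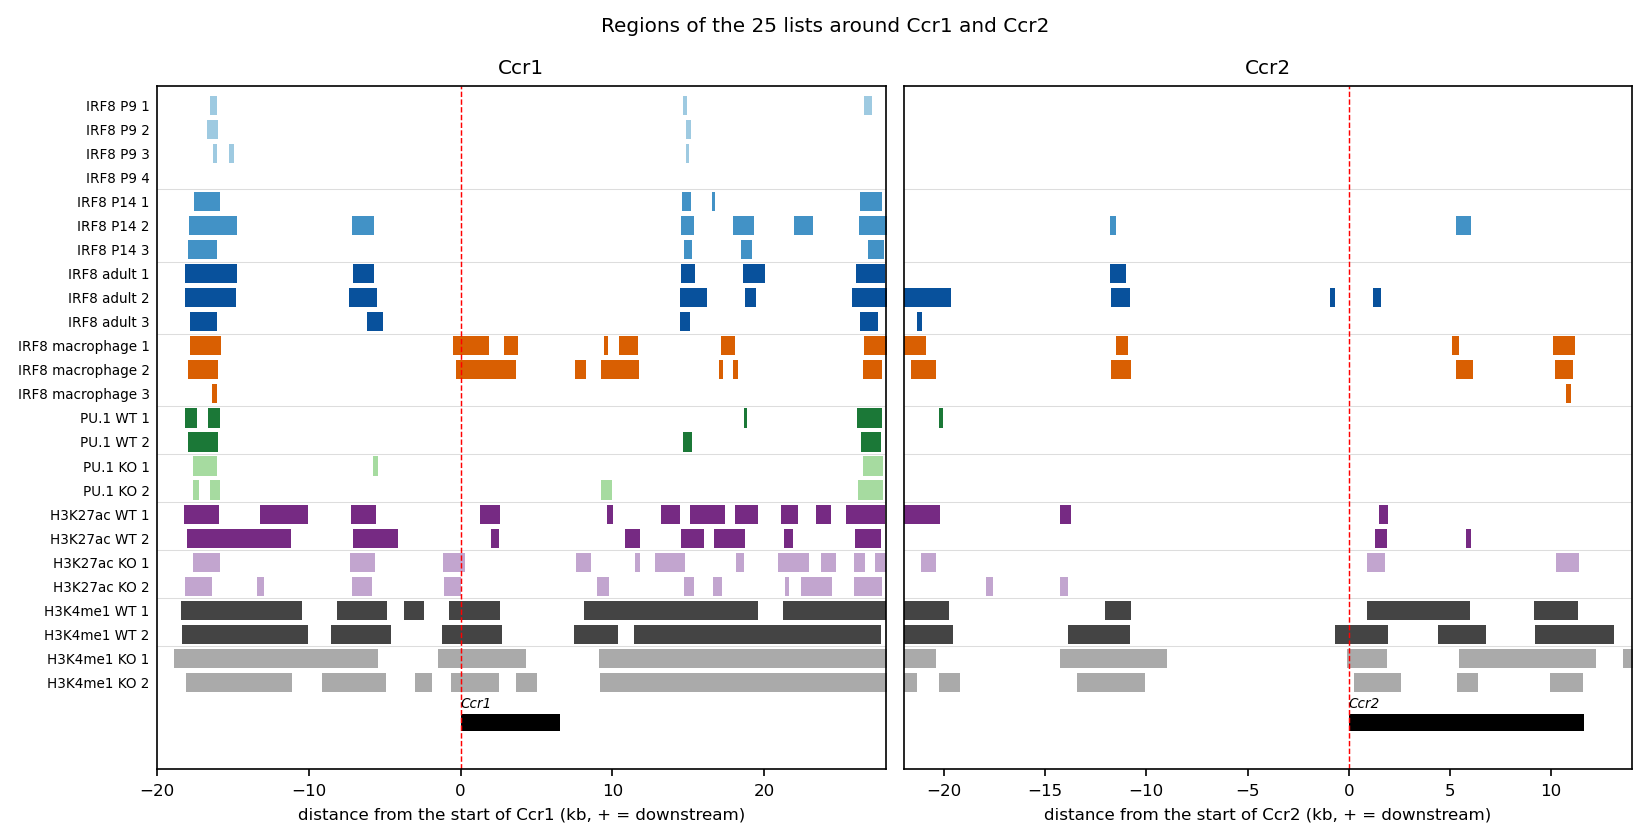
Regions of the 25 lists (one row per library) against distance in kb from the start of Ccr1 (left) and from the outermost start of Ccr2 (right), positive downstream, with their gene bodies at the bottom; the Ccr2 panel ends 14 kb downstream. IRF8 bars in the Ccr1 body and at the 3′ end of the GENCODE record of Ccr2 are in macrophage rows only, and the H3K27ac bars at the Ccr1 start are in the KO rows.

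Ccrl2 (chr9:111054486-111057519, minus strand) had no IRF8 region at P9, 1, 2 and 0 at P14, 4, 4 and 2 in adults, and 3, 4 and 0 in macrophages. The 10.5-kb site downstream (chr9:111045325-111048127) had IRF8 in 2 of 3 libraries at P14, 3 of 3 in adults and 1 of 3 in macrophages, at 6.60, 8.66 and 7.94 in the adults. The start site (chr9:111056904-111059576) had IRF8 in 1 of 3, 3 of 3 and 2 of 3. Both sites kept H3K27ac in all 4 libraries. One of 3 WT H3K27ac regions was lost, at a start of the neighbour Ltf (chr9:111035457-111036310). Its 2 WT libraries differed widely, with fold enrichments of 2.94 and 10.3.

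Cxcr4 (chr1:128588199-128592293, minus strand) was the gene with the fewest regions, present in 14 of 25 lists. IRF8 regions numbered 0 in all P9 libraries, 0, 1 and 0 at P14, 0, 1 and 0 in adults, and 2, 1 and 1 in macrophages. Each macrophage library thus had a region, and 2 of 10 microglia libraries did. The start site (chr1:128590702-128592586) had IRF8 fold enrichments of 7.70 and 7.25 in the first and second macrophage libraries, and of 3.87 and 5.13 in the second P14 and second adult libraries, which have the most regions of their groups. Cxcr4 had no PU.1 or H3K27ac consensus region in either genotype. H3K4me1 covered its start in all 4 lists.

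C5ar1 (chr7:16246743-16259540) and C5ar2 (chr7:16234585-16244154) are neighbours on the minus strand whose windows overlap, so most of their regions are shared. Neither had an IRF8 region at P9. C5ar1 had 2, 3 and 1 at P14, 4, 8 and 4 in adults and 3, 2 and 1 in macrophages. C5ar2 had 2, 5 and 2 at P14, 4, 8 and 4 in adults and 4, 3 and 0 in macrophages. All adult C5ar1 values were above all P14 and macrophage values. These counts include regions at the starts of neighbour genes. The Dhx34 start (chr7:16221399-16222735), in the C5ar2 window only, had IRF8 in 2 of 3 libraries at P14, 3 of 3 in adults and 2 of 3 in macrophages. Its fold enrichment was 8.82, 18.6 and 8.21 in the adults. The Inafm1 start (chr7:16272906-16273940), in the C5ar1 window only, had IRF8 in 0 of 3, 2 of 3 and 1 of 3.

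The C5ar2 start (chr7:16243767-16244857) was the main shared site, with IRF8 in all 3 libraries of P14 and of adults and in 2 of 3 of macrophages. IRF8 fold enrichment was 16.1, 14.2 and 6.61 in adults. PU.1 was listed there in both genotypes, at 14.6 and 6.67 in WT and 9.51 and 6.96 in KO. The WT H3K27ac region over it (chr7:16239156-16245226) was among the strongest of its lists, at the 99.2th and 99.9th percentile, with fold enrichments of 13.9 and 19.96. In the KO both libraries had peaks in this region, the strongest at 8.23 and 8.14, and 1 of the 2 had a peak overlapping the IRF8 site itself, at 5.01. H3K27ac covered 16365 and 17243 bp of regions at C5ar2 in WT and 10617 and 3800 bp in the KO, whose second list is the shortest. Neither of the 2 PU.1 regions at this locus was lost, and the second, near the C5ar1 start (chr7:16257970-16258813), had the same WT values as the lost region at the Cx3cr1 start, 6.05 and 3.45; it had a peak in the first KO library only, at 4.76. One of the locus's 7 distinct H3K27ac regions was, between the genes (chr7:16246219-16246713). By −log10 p it lay low in the WT lists, at the 20.9th and 21.5th percentile.

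**Figure D3:**
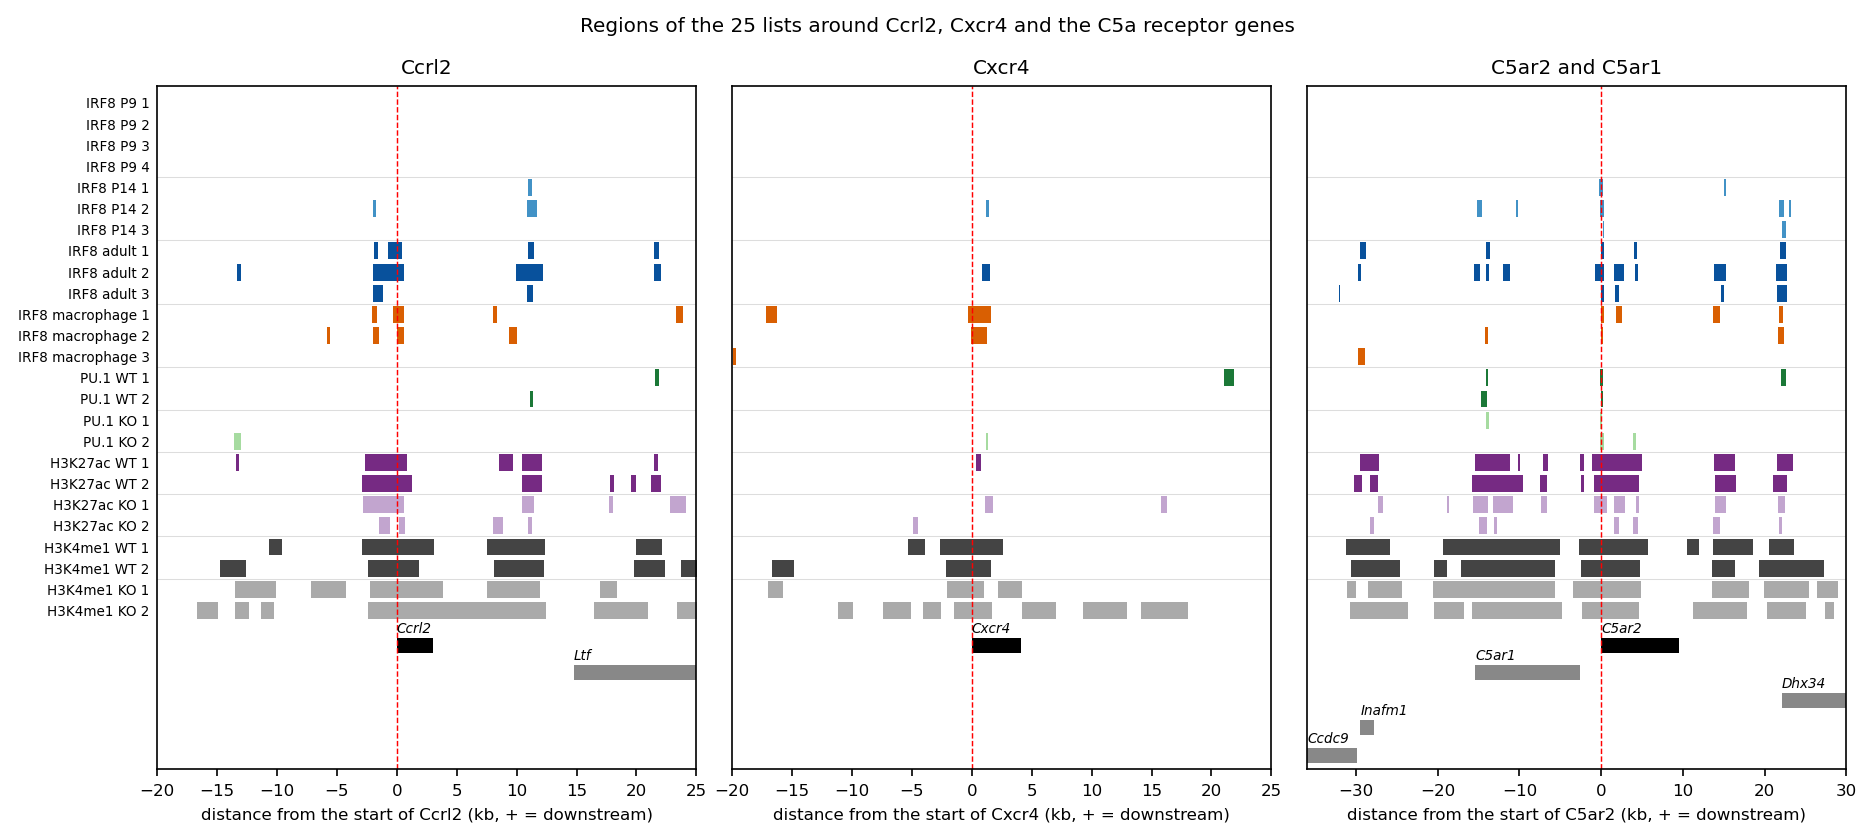
Regions of the 25 lists (one row per library) against distance in kb from the outermost starts of Ccrl2, Cxcr4 and C5ar2 (positive downstream), with gene bodies at the bottom. All P9 rows are empty in the 3 panels, and Cxcr4 has few bars outside H3K4me1.

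Across the 3 ages of microglia, the number of IRF8 regions rose for 6 of the 7 genes. Over all 16472 genes with a region, 37.3% rose by the same test, so the genes' share stands beside a rise that was common. The test was an exact permutation Jonckheere-Terpstra trend over the order P9, P14, adult, two-sided, with Benjamini-Hochberg adjustment over all genes and a threshold of 0.05. Adjusted p was 0.0279 for Cx3cr1, 0.0438 for Ccr1, 0.0279 for Ccr2, 0.0279 for Ccrl2, 0.0224 for C5ar1 and 0.0224 for C5ar2 (exact permutation). For Cxcr4 it was 0.628. No gene fell by this test, at adjusted p or at an unadjusted p below 0.05 (0 genes, against 8512 in the rising direction).

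The length of the lists moved with age in the same direction. P9 lists held 1168 to 2068 regions, P14 lists 7931 to 19243 and adult lists 17048 to 29667, from 13379171 to 20869014, 13865687 to 24365583 and 7250496 to 24705885 fragments. Each age also had a control library of its own, so age and control cannot be told apart. When all IRF8 lists were cut to their 1168 strongest regions, 4 of the 7 genes had a region left in microglia and none was called, nor was any of the 3899 genes tested (74 had an unadjusted p below 0.05 in the rising direction and 31 in the falling one). Cx3cr1 then had 1, 2, 1 and 1 regions at P9, 1, 0 and 0 at P14 and 1, 0 and 0 in adults. Leaving out 1 of the P9 libraries left 2 of the 7 genes called, leaving out the first adult library 3, and leaving out the second adult library 0. In that last fit no gene of 15697 was called by the exact test, and 6337 had an unadjusted p below 0.05, the 6 receptor genes among them.

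**Figure D4:**
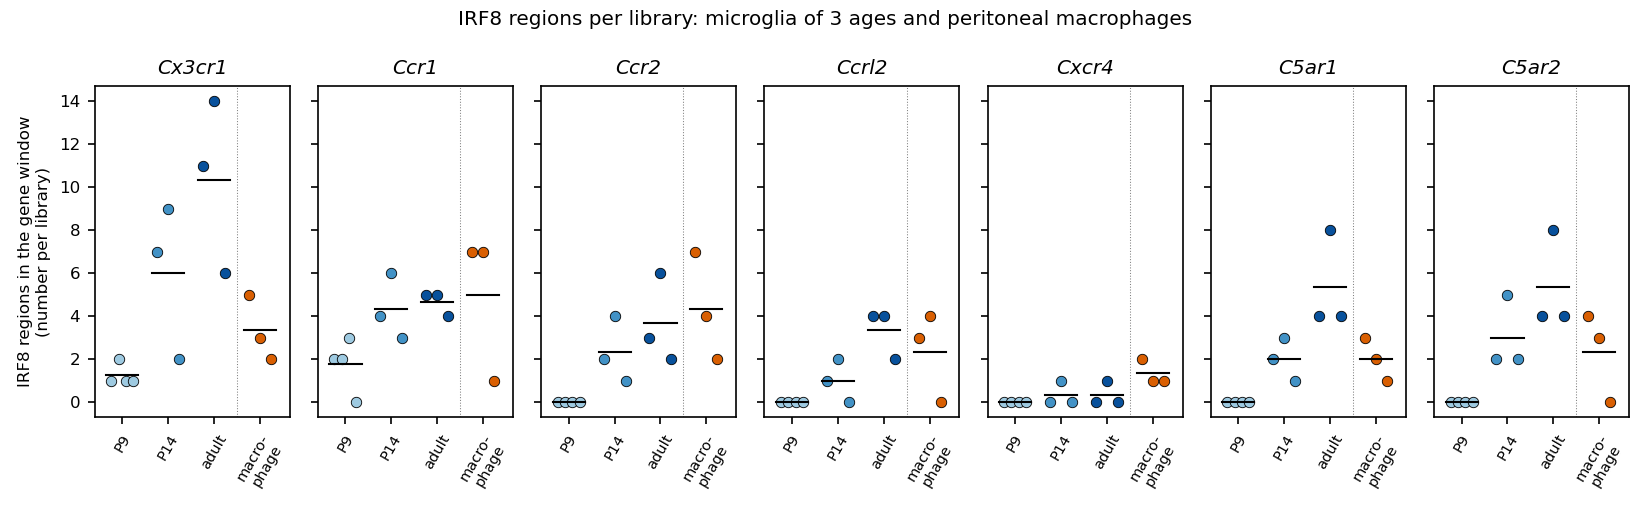
Number of IRF8 regions in the window of each gene (y axis) by group (x axis); each point is a library and each bar the group mean. In P9 only Cx3cr1 and Ccr1 have points above 0, and Cxcr4 is at 0 to 2 throughout.

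A consensus region of IRF8, listed in 2 or more libraries of its group, was present for 2 of the 7 genes at P9 (Cx3cr1 and Ccr1), where 7.00% of all protein-coding genes had one. At P14 it was 6 of 7 against 32.0%, and in adults 6 of 7 against 50.6%, with Cxcr4 the exception both times. In macrophages it was 7 of 7 against 39.9%. Cx3cr1 had 1, 4, 9 and 2 consensus regions in the order P9, P14, adult and macrophage, and Ccr1 had 2, 4, 5 and 5. Ccr2 had 0, 2, 4 and 4, Ccrl2 0, 1, 3 and 2, and Cxcr4 1 in macrophages only. C5ar1 had 0, 1, 6 and 1, and C5ar2 0, 2, 6 and 2. The macrophage count rests on the first 2 libraries: without the first it was 2 of 7, without the second 3 of 7, and 3 of 7 had a region shared by all 3 libraries.

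Adult microglia and peritoneal macrophages were each made in 2 batches, per the labels. Cx3cr1 had more IRF8 regions in adult microglia within both: 11 and 14 against 5 and 3 in batch 1, and 6 against 2 in batch 2. C5ar1 did too, with 4 and 8 against 3 and 2, and 4 against 1. For Cxcr4 macrophages had 2 and 1 against 0 and 1 in batch 1, which overlap, and 1 against 0 in batch 2. For Ccr1 the direction differed, with 5 and 5 against 7 and 7 in batch 1 and 4 against 1 in batch 2. The batch 2 lists differed in length, with 22421 regions in adult microglia and 9788 in macrophages. With all IRF8 lists cut to 1168 regions, 1 of the 7 genes had a consensus region in adults and 0 in macrophages. With 3 libraries against 3 the smallest exact permutation p is 0.1, so no test was made, and tissue and control library cannot be told apart. Of the 66 distinct IRF8 or PU.1 sites in the 7 windows, 15 had IRF8 in all 3 adult libraries. Of these, 6 had it in no macrophage library, 4 of 5 at Cx3cr1 and 2 of 4 at Ccr1, against 28.7% of the 7234 such sites over all gene windows. In the other direction 17 sites had IRF8 in at least 2 macrophage libraries, and 3 of them, 2 of 5 at Ccr1 and 1 of 6 at Ccr2, in no microglia library, against 25.3% over all gene windows.

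All 8 WT PU.1 consensus regions at the 7 genes overlapped an adult IRF8 consensus region, as did 87.4% of all WT PU.1 regions. The 28 adult IRF8 regions at these genes overlapped PU.1 in 8 cases (4580 of 16935 over all adult IRF8 regions), H3K27ac in 21 (81.8%) and H3K4me1 in 28 (91.3%).

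Summed over the 7 genes, the KO lacked 2 of 8 WT consensus regions for PU.1, 7 of 31 for H3K27ac and 0 of 25 for H3K4me1, where the shares over all gene windows were 24.0%, 32.3% and 9.08%. Gains were 0 of 4 for PU.1, where 15.6% were gained over all gene windows, 2 of 18 for H3K27ac (10.0%) and 1 of 29 for H3K4me1 (22.2%). Apart from PU.1 at Cx3cr1, 2 of 4, no gene's PU.1 regions were lost: 0 of 2 at Ccr1, and 0 of 2 at the C5a receptor locus. The second KO H3K27ac list held 31524 regions and the other 3 held 72354 or more. With lists of equal length 2 of 16 H3K27ac regions were lost. When a KO peak had to cover at least 0.5 of a region, 20 of 31 were lost.

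**Figure D5:**
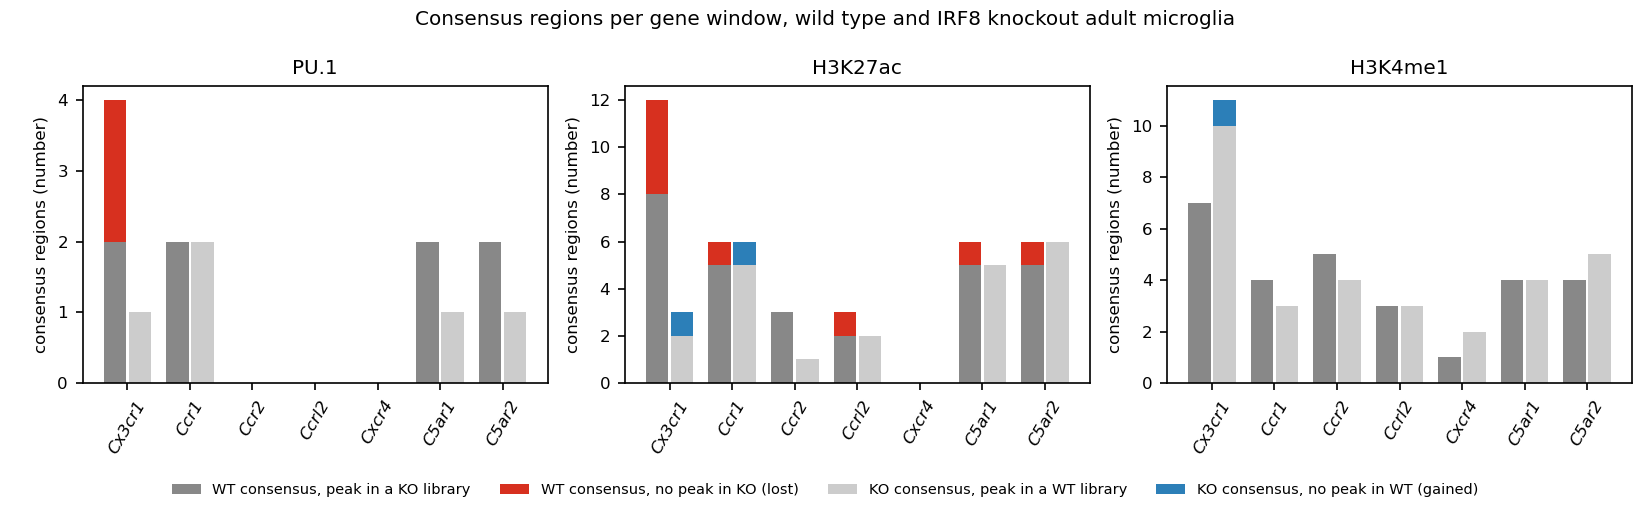
Number of consensus regions (y axis) in the window of each gene, for PU.1, H3K27ac and H3K4me1; the left bar of each pair is WT and the right bar KO. Lost PU.1 regions (red) are at Cx3cr1 only, 2 of 4, and gained regions (blue) are at Cx3cr1 and Ccr1.

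A list of 27 other chemoattractant receptor genes gave the following counts. IRF8 consensus regions were present for 7, 15, 20 and 19 of 27 at P9, P14, in adults and in macrophages, against 7.00%, 32.0%, 50.6% and 39.9% of all genes. Of the 24 with a region in microglia, 14 rose over the 3 ages, against 37.3% of all genes tested. PU.1 regions were lost in 6 of 19 cases (24.0% over all gene windows) and gained in 0 of 11 (15.6%). H3K27ac regions were lost in 17 of 62 (32.3%) and gained in 6 of 28 (10.0%). H3K4me1 regions were lost in 8 of 79 (9.08%) and gained in 10 of 92 (22.2%). The 4 genes with the most lost or gained PU.1 and H3K27ac regions are named next, and their counts were the basis of that choice. Ccr6, the receptor for CCL20, lost 2 of 3 PU.1 and 3 of 7 H3K27ac regions. Ackr2, a chemokine scavenger, lost 1 of 1 and 3 of 3. Xcr1, the XCL1 receptor, lost 1 of 3 and 2 of 4. Ackr3, a scavenger of CXCL12, gained 3 of its 4 KO H3K27ac regions. The windows of 2 genes on this list overlap those of the 7 genes, so the counts share regions.

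By presence in the 10 groups, 302 genes matched Cx3cr1 exactly, with a region in every list. Among them 4930469K13Rik, Enox1 and Filip1l also had the same number of WT PU.1 and H3K27ac consensus regions, 16.

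The libraries were checked against marker genes by H3K27ac within 1 kb of a start in both adult WT libraries. Of 8 microglia markers 7 had it, and Tmem119 had it in 1 library. It was present in both for 0 of 5 neuron, 0 of 4 T or B cell and 0 of 4 monocyte or neutrophil markers, while Syt1, Cd3d, Ms4a1 and S100a9 of these lists had it in the second library alone. It was present in both for 1 of 4 astrocyte (Slc1a3), 2 of 4 oligodendrocyte (Mbp and Mog) and 1 of 4 border or peritoneal macrophage markers (Mrc1). The part of these cells in the results above was not tested.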

How the data were processed

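CUT&RUN regions of 25 libraries (IRF8, PU.1, H3K27ac and H3K4me1) were analysed; the 4 IgG libraries entered only through the authors' calls. Peaks were called per library with MACS (2.2.7.1 for IRF8 and PU.1, 2.2.6 for histone marks), with duplicates kept, per the file headers. Thresholds were a q-value of 0.01, a q-value of 0.05 and a different control for replicate 2 of PU.1, and a p-value of 0.01 with a minimum length of 1000 bp for H3K4me1, per the file headers. The deposited values are the authors' pileup signal, −log10 p-value and fold enrichment, a ratio to a control scaled with the library; they served to describe and order peaks of 1 list, or to drop weak ones, and were never compared by test. The submitters' processing notes name bcl2fastq, Trim Galore, Bowtie2, deepTools, MACS2 and mm10, without roles. No peak lies beyond a GRCm38 chromosome end (0 peaks).

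Entries with the same coordinates were merged into 1 region. Depth was 7250496 to 24705885 fragments, per the file headers, and between 1168 and 189351 regions per list. Consensus regions needed a peak in 2 libraries, or in the 1 remaining where a library of a group of 2 was left out. The trend statistic was computed with Python 3.11.15 and numpy 2.4.6 over all 4200 assignments of the 10 libraries, and tested on simulated data. The labels do not say that replicates came from separate animals, so p-values measure the spread between these libraries, which may be technical. Alternatives were other windows, thresholds, list lengths, overlaps and left-out libraries, and, chosen after seeing the data, RefSeq gene bodies and PU.1 libraries compared within 1 replicate number. The 7 genes and the lists were chosen with earlier results of these data known. All 7 genes are named, with every lost or gained PU.1 and H3K27ac region, and up to 4 other receptors with the most lost or gained regions.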

Additional observations from a re-analysis of the deposited data

Results flagged for a closer look

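In the P9 group, the second library had 2 IRF8 regions in the Cx3cr1 window and the other 3 had 1 each, so its gap to the nearest value is 1 times the group's range. The additional region is at the 34-kb site, with a fold enrichment of 4.21. At P9, 2 genes had regions to compare in this way. No chance rate is given, because among such small counts 1 library that differs from 3 equal ones always gives a value of 1.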

How the results depend on the processing

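Limits include 2 libraries per genotype and list lengths that differ between ages, between adult microglia and macrophages, and among H3K27ac and H3K4me1 libraries. Of the 7 genes, 6 rose over the 3 ages; 0 rose with lists of equal length, and between 0 and 6 when 1 library was left out. With the replicate number as a block, 0 rose (adjusted p of 0.103 for Cx3cr1, exact permutation); the block has 216 assignments and a smallest p of 0.00926, the smallest adjusted p over all genes was 0.103, and 5186 of 16464 had an unadjusted p below 0.05. Same-numbered libraries of the 3 ages share only a number: the correlations of their deviations ran from -0.05 to 0.22, with 2 of 9 pairs above 0.1. With PU.1 paired by number, a block chosen after seeing the data because same-numbered libraries share control and threshold, 10 of 17 regions were lost and 2 of 8 gained between the first libraries, and 6 of 10 and 6 of 11 between the second. No paired analysis was possible because nothing but the number ties the histone libraries, which all share 1 control, and their lost and gained counts come from no test. The adjusted p of Cx3cr1 and Ccr1 turned to the falling direction with equal lists (both 1, exact permutation), and that of Ccr1 was 0.0607 with windows of 10 kb. Cxcr4 reached 0.0472 with windows of 50 kb. The causes of these changes were not tested, except that the cut lists hold fewer regions.

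Genes with an IRF8 consensus in P9, P14, adult and macrophage lists numbered 2, 6, 6 and 7. With equal lists P14 fell to 1, adults to 1 and macrophages to 0. With a region needed in all libraries, P9 had 1 and macrophages 3. Leaving out 1 library gave 2 at P9, 5 to 6 at P14, 6 in adults and 2 to 7 in macrophages.

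Lost PU.1 regions (2) became 1 at a −log10 p of at least 5, 1 with equal lists, 4 against the KO consensus, and 2 to 9 without 1 library. Gained PU.1 regions (0) became 2 with windows of 50 kb and 0 to 5 without 1 library. Lost H3K27ac regions (7) became 14 with windows of 50 kb, 2 with equal lists, 20 with an overlap of at least 0.5, 17 against the KO consensus, 4 with RefSeq gene bodies, and 9 to 16 without 1 library. Gained H3K27ac regions (2) became 1 with equal lists, 1 with RefSeq gene bodies, and 2 to 14 without 1 library. Lost H3K4me1 regions (0) became 2 with an overlap of at least 0.5 and 0 to 1 without 1 library. Gained H3K4me1 regions (1) became 2 with windows of 50 kb, 4 at a −log10 p of at least 5, 2 with equal lists, 10 with an overlap of at least 0.5, 7 against the WT consensus, 0 with RefSeq gene bodies, and 4 to 15 without 1 library. Of the other alternative values of these counts, 71 stayed within 1.5 times the main count, counts of 0 that stayed at 0 included. Lost H3K4me1 regions have no value at a −log10 p of at least 5, since no WT region was left. In the lost and gained counts without 1 library, the remaining library of that genotype defined its consensus alone.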
